A study of Mus musculus with 6 samples.

Results

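Hedgehog signalling was followed through 9 genes, Ptch1, Smo, Gas1, Boc, Hhip, Sufu, Gli1, Gli2 and Gli3, which were picked by name as core components of the pathway and make up 9 of the 55802 genes listed. They were measured by RNA-seq in primary neural stem cells from the subventricular zone (SVZ) of adult C57BL/6 mice, grown in a Neurobasal-type medium with 2% B27 supplement. The SETD4 OE group (n = 3) had been infected for 24 h with an adenovirus, ADV-SETD4-GFP, that carries SETD4 and green fluorescent protein. The control group (n = 3) had received ADV-GFP, the same type of virus with the fluorescent protein but without SETD4, so every library came from virus-treated cells, and the labels give the genotype of the control cells as WT. The labels do not say whether the libraries of a group came from separate cultures or animals, and p-values measure the spread between these libraries, which may be technical. The study's title concerns SETD4 cells in brain development and in the adult stem cell reservoir, and the comparison asks what raised SETD4 does to the expression of these genes.

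In the textbook pathway, the secreted ligands Shh, Ihh and Dhh bind the receptor Ptch1, helped by the co-receptors Gas1, Boc and Cdon. Unbound Ptch1 holds the membrane protein Smo inactive, and ligand binding frees Smo to act in the primary cilium on the zinc-finger factors Gli2 and Gli3, which Sufu otherwise restrains. Gli1, Ptch1 and Hhip are target genes, so that their RNA is widely used as a readout of signalling. In the adult SVZ, Hedgehog signalling is known for a role in stem cell maintenance and in the identity of ventrally derived neurons.

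Values are FPKM, reads or fragments scaled to gene length and library size, so levels of different genes can be compared. The libraries held between 14924273 and 18078717 reads, recovered from the FPKM steps. Setd4 was at 325 ± 26.4 FPKM in SETD4 OE and 1.15 ± 0.329 FPKM in controls (mean ± SD, n = 3 each). Of 10 stem cell and astroglial markers, Gfap, Slc1a3, Sox2, Vim and Fabp7 were above 150 FPKM in nearly all libraries. The exception was Sox2 at 146 FPKM in control replicate 1. Aldoc averaged 247 FPKM in SETD4 OE and 101 FPKM in controls, and Sox9 78.5 and 52.1 FPKM. Hopx averaged 25.8 FPKM in SETD4 OE and 10.4 FPKM in controls, and Prom1 6.15 and 2.36 FPKM. All 10 were tested, and 7 rose and 3 fell, where 60.0% of all tested genes changed. Those that fell were Vim, Fabp7 and Nes. Nes was at 36.5 to 45.9 FPKM in SETD4 OE and 99.0 to 130 FPKM in controls. Reads from mitochondrially encoded genes took 3.52 to 3.73% in SETD4 OE, against 3.78% in control replicate 1 and 2.45% in both other controls. Without control replicate 1, Sufu is the member whose call changes, as given below.

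Among the receptor genes, Gas1 and Boc rose 1.72-fold and 1.97-fold, while Cdon, which serves the same purpose, fell. Smo and Ptch1 did not pass the test. Further downstream, Gli2 more than doubled and Gli3 rose slightly, yet Gli1 stayed at a few reads per library in both groups. The ligand genes Dhh and Shh, both scarce, were lower in SETD4 OE. Of the 9 members, 7 reached the mean of at least 1 FPKM needed for testing, and 4 of these 7 rose and 0 fell (limma, adjusted p under 0.05 over all genes tested). That count, 57.1%, is close to the share of all tested genes that changed, 60.0% (26.0% higher, 33.9% lower). For the 4 that rose, no SETD4 OE library overlapped a control, as was so for 66.0% of all tested genes (29.1% higher, 36.9% lower). Hhip did not overlap either, but it was not tested and lies outside the genes that give this share. The median log2 fold change was 0.20 over the 7 tested members and -0.06 over all 12994 tested genes.

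**Figure D1:**
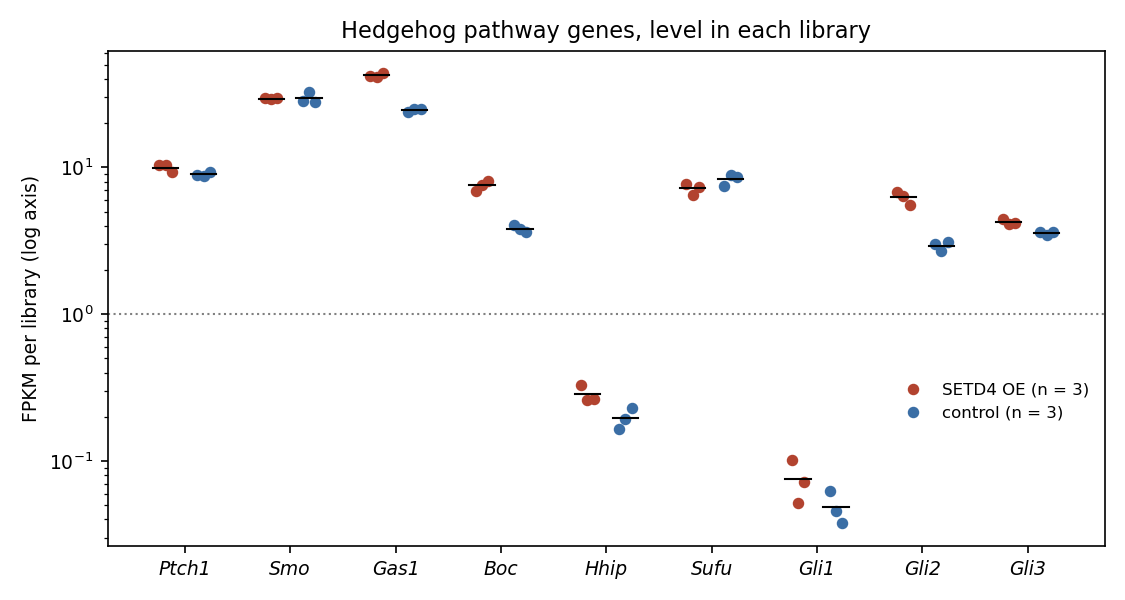
FPKM of the 9 Hedgehog genes in each library on a log axis, with a point per library, a bar at the group mean and a dotted line at 1 FPKM. Gas1, Boc and Gli2 separate clearly between the groups, Smo does not, and Hhip and Gli1 lie below 1 FPKM in all 6 libraries.

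Ptch1, the receptor (ENSMUSG00000021466; mm39 chromosome 13, 63656142 to 63721412, minus strand), was at 10.4, 10.3 and 9.25 FPKM in SETD4 OE, against 8.90, 8.77 and 9.29 FPKM in controls. The groups overlapped through SETD4 OE replicate 3, which lay just below the highest control. On the log2(FPKM + 1) scale the difference was 0.14 (SE 0.06, 95% interval -0.01 to 0.28, limma adjusted p = 0.0959). The call depends on the scaling of the libraries, since Ptch1 passed at 0.21 with equal sums (adjusted p = 0.02765, limma), at 0.20 with the upper quartile and at 0.22 with quantile normalization. It also passed without SETD4 OE replicate 3 (0.19, limma adjusted p = 0.0449).

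Smo, the transducer that Ptch1 holds in check (ENSMUSG00000001761; chromosome 6, 29735502 to 29761364, plus strand), was at 29.7, 29.1 and 29.5 FPKM in SETD4 OE, against 28.5, 32.5 and 27.9 FPKM in controls. The SETD4 OE values all lay inside the range of the controls. The difference was -0.01 on the log2 scale (SE 0.07, 95% interval -0.17 to 0.15, limma adjusted p = 0.938). With quantile normalization the estimate was 0.16 and passed narrowly (limma adjusted p = 0.04875). A processed pseudogene, Gm13717, lies inside Smo on the same strand at a mean of 1.24 FPKM in SETD4 OE and 0.343 FPKM in controls, so some reads could belong to either.

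Gas1, a membrane-anchored co-receptor (ENSMUSG00000052957; chromosome 13, 60322219 to 60325179, minus strand), was the most abundant member in SETD4 OE at 42.2, 41.1 and 43.8 FPKM, against 23.9, 24.95 and 25.2 FPKM in controls. Every SETD4 OE library was well above every control. The log2 fold change was 0.76 (SE 0.05, 95% interval 0.63 to 0.88, limma adjusted p = 2.723e-05).

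Boc, an immunoglobulin and fibronectin repeat co-receptor (ENSMUSG00000022687; chromosome 16, 44305412 to 44379260, minus strand), was at 6.96, 7.63 and 8.02 FPKM in SETD4 OE, against 4.08, 3.78 and 3.64 FPKM in controls. The groups were again apart. Its log2 fold change was 0.82 (SE 0.07, 95% interval 0.65 to 0.99, limma adjusted p = 7.512e-05).

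Cdon, the close relative of Boc, went the other way. It was at 10.7, 9.67 and 8.62 FPKM in SETD4 OE, against 15.6, 15.4 and 14.7 FPKM in controls, and all SETD4 OE libraries were below all controls. The log2 fold change was -0.61 (SE 0.08, limma adjusted p = 0.0005538). The ratio of Boc to Cdon within a library, which does not depend on a library's scaling factor, was 0.649, 0.790 and 0.931 in SETD4 OE, against 0.262, 0.246 and 0.249 in controls; as neither gene overlaps between the groups, this ratio is a description. The summed level of Gas1, Boc and Cdon was 59.6 ± 1.05 FPKM in SETD4 OE and 43.7 ± 0.327 FPKM in controls (SD, n = 3 each), with no overlap.

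Hhip, a membrane protein that binds and sequesters the ligands and is itself a target gene (ENSMUSG00000064325; chromosome 8, 80692480 to 80784635, minus strand), was scarce. It had 47, 37 and 40 reads in SETD4 OE and 24, 31 and 33 reads in controls, or 0.328, 0.262 and 0.265 FPKM in SETD4 OE and 0.165, 0.194 and 0.229 FPKM in controls. The groups did not overlap, by a small margin. Hhip was below the level needed for testing. On recovered reads with limma-voom, over every gene with at least 10 reads, its log2 fold change was 0.51 (SE 0.26, adjusted p = 0.131), which does not pass.

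Sufu, the cytoplasmic inhibitor of the Gli factors (ENSMUSG00000025231; chromosome 19, 46385335 to 46477243, plus strand), was at 7.77, 6.50 and 7.32 FPKM in SETD4 OE, against 7.45, 8.87 and 8.60 FPKM in controls. The groups overlapped because control replicate 1 was lower than the other controls. The log2 fold change of -0.18 did not pass (SE 0.09, 95% interval -0.39 to 0.02, limma adjusted p = 0.106). Without control replicate 1 it was -0.25 and passed (limma adjusted p = 0.0346).

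Among the Gli factors, Gli2, the main activator downstream of Smo (ENSMUSG00000048402; chromosome 1, 118761862 to 118981349, minus strand), had the largest estimate of the 7 tested members in the main fit, though Gas1 exceeded it with quantile normalization and Boc without SETD4 OE replicate 1. It was at 6.80, 6.39 and 5.56 FPKM in SETD4 OE, against 3.00, 2.68 and 3.11 FPKM in controls. The lowest SETD4 OE library was far above the highest control. The mean level was 2.13 times that of the controls, and the log2 fold change was 0.88 (SE 0.09, 95% interval 0.68 to 1.08, limma adjusted p = 0.0001265).

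Gli3, which without ligand is cut to a repressor form (ENSMUSG00000021318; chromosome 13, 15637820 to 15904611, plus strand), was at 4.47, 4.13 and 4.17 FPKM in SETD4 OE, against 3.63, 3.46 and 3.61 FPKM in controls. The groups did not overlap, but the change was small, at 0.20 on the log2 scale (SE 0.06, 95% interval 0.06 to 0.35, limma adjusted p = 0.0239). The call was lost when SETD4 OE replicate 1 (adjusted p = 0.08565, limma), SETD4 OE replicate 3 (0.0505), control replicate 2 (0.0723) or control replicate 3 (0.0626) was left out, and when low genes were not filtered (0.0520). RNA levels do not show how much Gli3 protein is full length or cut.

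Gli1, the amplifying activator and the usual readout of the pathway (ENSMUSG00000025407; chromosome 10, 127165751 to 127177843, minus strand), had 8, 4 and 6 reads in SETD4 OE and 5, 4 and 3 reads in controls. That is 0.0750 ± 0.0251 FPKM in SETD4 OE and 0.0486 ± 0.0127 FPKM in controls (SD, n = 3 each), and the groups overlapped. Over 6 libraries, 27.9% of the 30911 genes with any read had a lower mean level than Gli1. A difference between the groups was not detectable at this depth, since limma-voom on the reads gave 0.52 with an SE of 0.61 (adjusted p = 0.517).

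Within a library, Gli2 was 1.52, 1.55 and 1.33 times as abundant as Gli3 in SETD4 OE, against 0.826, 0.774 and 0.863 times in controls. Gli2 was thus the higher of the pair in each SETD4 OE library and the lower in each control. Sufu was 1.14, 1.02 and 1.32 times as abundant as Gli2 in SETD4 OE, against 2.48, 3.31 and 2.76 times in controls. Of 5 ratios compared, Gli2 to Gli3, Sufu to Gli2 and Sufu to Gli3 had no overlap between the groups. The ranges of the genes given above already fix this, so these ratios are a description. The exact two-sided permutation p = 0.1 of each adds nothing, as it is the smallest that 3 against 3 libraries can give (0.167 after Benjamini-Hochberg adjustment over the 5). The ratios of Gas1 to Boc and of Ptch1 to Smo overlapped between the groups.

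**Figure D2:**
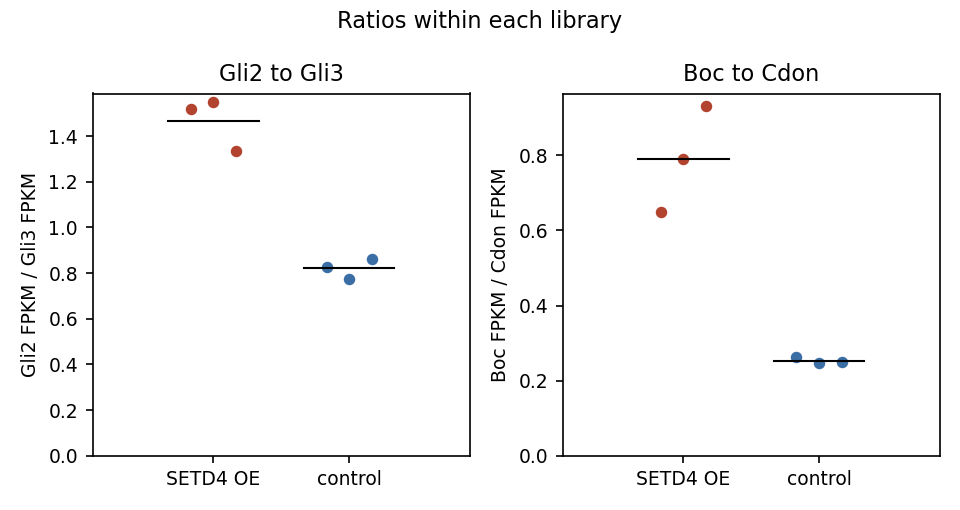
Ratio of FPKM values within each library, for Gli2 to Gli3 and for Boc to Cdon, with a point per library and a bar at the mean of each group (n = 3). Gli2 to Gli3 lies above 1.3 in SETD4 OE and below 0.9 in controls, and Boc to Cdon lies above 0.6 in SETD4 OE and below 0.3 in controls.

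The order of mean levels also differed between the groups. In SETD4 OE it was Gas1, Smo, Ptch1, Boc, Sufu, Gli2, Gli3, Hhip and Gli1. Boc and Sufu, and Sufu and Gli2, had overlapping ranges there. In controls it was Smo, Gas1, Ptch1, Sufu, Boc, Gli3, Gli2, Hhip and Gli1, and among neighbours only Ptch1 and Sufu overlapped.

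**Figure D3:**
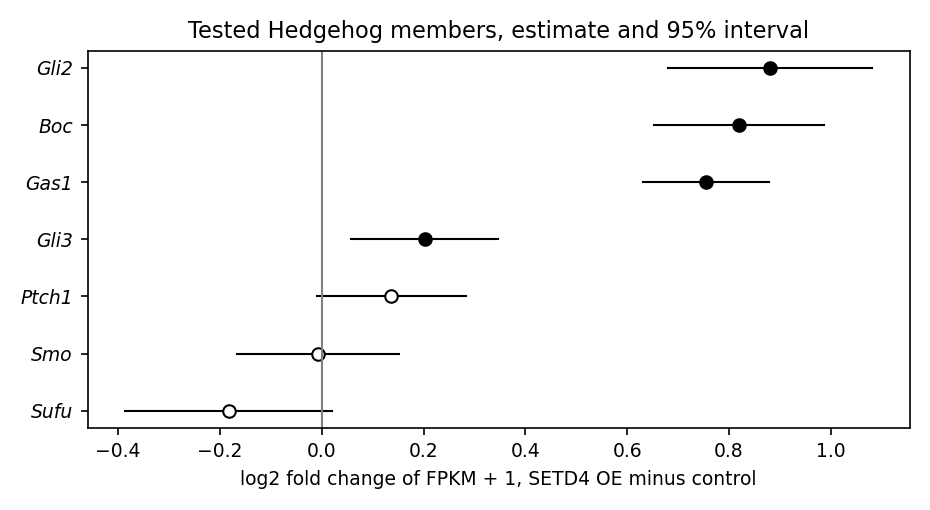
Log2 fold change of FPKM + 1 (SETD4 OE minus control) of the 7 tested members, with 95% intervals from limma. Filled points passed an adjusted p of 0.05; Gli2, Boc and Gas1 lie between 0.75 and 0.89, Gli3 at 0.20, and the intervals of Ptch1, Smo and Sufu include 0.

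To show the sequence context of the called receptor and Gli genes beside the classical target gene, the promoters of Gli2, Gas1 and Ptch1 are given from RefSeq (GRCm38.p6, an earlier build than the mm39 of the expression tables), 5′ to 3′ on the gene's strand. Lower case marks the 250 bases before the annotated start and capitals the 50 bases from it. Whether these starts are the outermost starts of the mm39 genes was not checked. The windows are chr1:119053570-119053869 (minus strand) for Gli2, chr13:60177486-60177785 (minus strand) for Gas1 and chr13:63565686-63565985 (minus strand) for Ptch1.
Gli2: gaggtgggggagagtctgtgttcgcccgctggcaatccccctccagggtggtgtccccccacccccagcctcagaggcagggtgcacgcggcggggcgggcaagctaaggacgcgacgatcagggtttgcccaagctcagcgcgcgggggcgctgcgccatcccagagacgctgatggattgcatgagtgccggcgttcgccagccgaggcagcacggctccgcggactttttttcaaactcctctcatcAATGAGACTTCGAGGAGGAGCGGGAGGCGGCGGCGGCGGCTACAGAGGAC
Gas1: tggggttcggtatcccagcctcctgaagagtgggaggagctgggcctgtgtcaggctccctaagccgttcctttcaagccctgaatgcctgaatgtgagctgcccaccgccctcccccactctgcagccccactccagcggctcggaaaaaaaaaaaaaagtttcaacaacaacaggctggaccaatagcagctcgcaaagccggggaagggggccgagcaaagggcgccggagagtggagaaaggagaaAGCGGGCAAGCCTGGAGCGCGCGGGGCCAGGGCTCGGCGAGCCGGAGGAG
Ptch1: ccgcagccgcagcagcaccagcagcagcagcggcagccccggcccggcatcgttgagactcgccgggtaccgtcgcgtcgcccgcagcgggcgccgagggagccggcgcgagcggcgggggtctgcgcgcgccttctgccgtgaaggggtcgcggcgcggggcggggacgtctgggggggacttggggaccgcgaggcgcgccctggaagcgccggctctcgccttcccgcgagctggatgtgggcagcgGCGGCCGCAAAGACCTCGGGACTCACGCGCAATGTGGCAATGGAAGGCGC
GC content was 67.3% for Gli2, 62.3% for Gas1 and 76.3% for Ptch1, against a median of 52.7% over all 32851 promoter windows of the same length. The windows held 28, 17 and 47 CpG dinucleotides in that order of genes, against a median of 7. The consensus Gli binding motif GACCACCCA was searched on both strands in the 7 member promoters that matched the table (Gas1, Gli2, Gli3, Hhip, Ptch1, Smo and Sufu). None of the 7 held an exact match, and 0.253% of all windows did. The nearest stretch of 9 bases differed from the motif at 2 positions in Gli2, Hhip and Smo and at 3 in Gas1, Gli3, Ptch1 and Sufu. The absence of an exact match says only that these letters are not in these windows.

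The ligand genes were scarce, and of the 3 Dhh and Shh were lower in SETD4 OE. Dhh (chromosome 15, 98789033 to 98796421) had 6, 12 and 16 reads in SETD4 OE, against 124, 180 and 166 reads in controls, and every SETD4 OE library was below every control. It averaged 0.160 ± 0.0673 FPKM in SETD4 OE and 2.15 ± 0.341 FPKM in controls (SD, n = 3 each; log2 fold change -1.44, SE 0.12, limma adjusted p = 7.167e-05). Dhh overlaps Rhebl1 on the same strand, which was at 1.35 FPKM in SETD4 OE and 1.34 FPKM in controls. Shh, the ligand best known in the SVZ, had 10, 2 and 12 reads in SETD4 OE and 23, 25 and 29 reads in controls, again without overlap. Shh was too low for the main test, and limma-voom over every gene with at least 10 reads gave -1.88 (SE 0.52, adjusted p = 0.00737). Dhh was at -3.70 (SE 0.37) in a different limma-voom fit, over the genes of the main test only. Ihh had 9, 3 and 6 reads in SETD4 OE and 3, 6 and 3 reads in controls, and its groups overlapped. In bulk RNA, fewer cells that express a gene and less RNA per cell cannot be told apart.

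**Figure D4:**
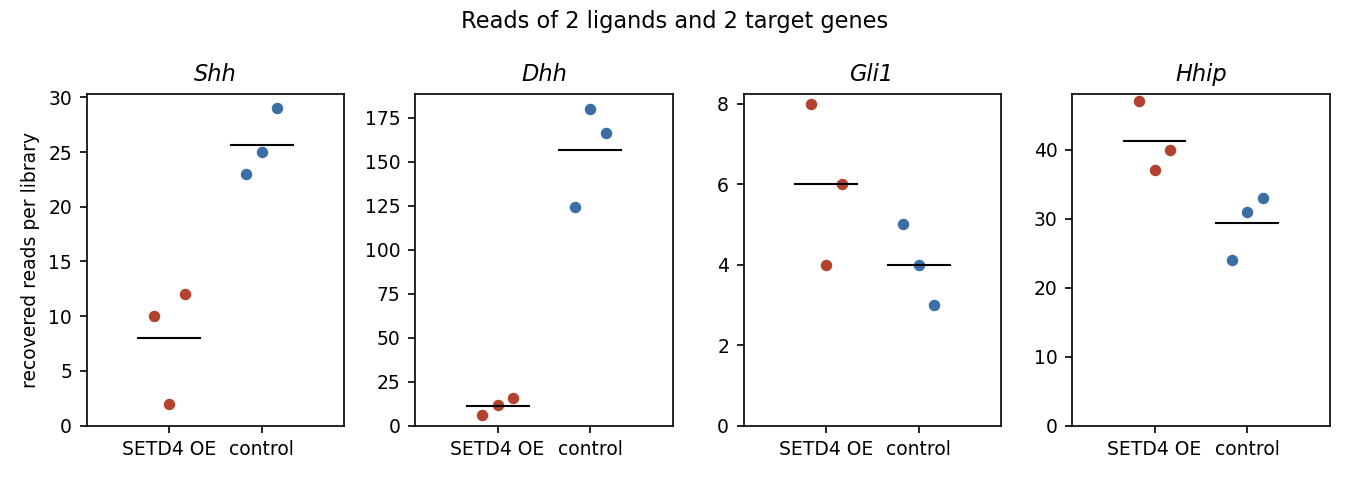
Reads per library, recovered from FPKM and gene length, of the ligand genes Shh and Dhh and the target genes Gli1 and Hhip, on linear axes that start at 0 and differ between panels, with a point per library and a bar at the mean (n = 3). Dhh has 6 to 16 reads in SETD4 OE and 124 to 180 in controls, whereas Gli1 has at most 8 reads in any library.

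Release of the ligands is known to need Disp1, which rose, while its relative Disp2 fell. Disp1 averaged 3.81 ± 0.263 FPKM in SETD4 OE and 3.03 ± 0.105 FPKM in controls (SD, n = 3 each; log2 fold change 0.25, limma adjusted p = 0.0158), a call lost without SETD4 OE replicate 3 (adjusted p = 0.0553, limma) or control replicate 3 (0.0574). Disp2 averaged 0.988 ± 0.109 FPKM in SETD4 OE and 1.62 ± 0.129 FPKM in controls (SD, n = 3 each; log2 fold change -0.40, limma adjusted p = 0.00897).

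A wider list of 58 genes around the pathway divided in both directions. Of 45 tested, 10 rose and 16 fell, together 57.8%, against 60.0% of all tested genes, and the list's median log2 fold change was -0.03. The split depends on the scaling, with 13 higher and 14 lower with equal sums, where all tested genes divide into 3887 higher and 3766 lower in place of 3384 and 4406. Among 15 genes of the ciliary relay between Smo and the Gli factors, all tested, 5 rose and 3 fell, together 53.3%, against 60.0% of all tested genes. Of the 5, Mgrn1 (log2 fold change 0.16, limma adjusted p = 0.0337) lost its call in 6 of 16 alternatives. Stk36, a kinase related to the fly regulator Fused, was at 5.43 ± 0.487 FPKM in SETD4 OE and 2.50 ± 0.217 FPKM in controls (SD, n = 3 each; log2 fold change 0.88, limma adjusted p = 0.0001163). Arrb1, a beta-arrestin, rose by 0.66 on the log2 scale, and Grk2, a kinase that phosphorylates active Smo, fell by 0.61 on that scale.

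Among 16 genes of kinases, ubiquitin ligases and their partner proteins that act on Gli proteins, all were tested. Of these, 2 rose and 4 fell, together 37.5% against 60.0% of all tested genes. Both tested catalytic subunits of protein kinase A, which marks Gli proteins for processing, were lower. Prkacb averaged 19.5 ± 1.05 FPKM in SETD4 OE and 38.8 ± 1.69 FPKM in controls (SD, n = 3 each; log2 fold change -0.96, limma adjusted p = 2.021e-05). Prkaca averaged 54.2 ± 2.62 FPKM in SETD4 OE and 77.3 ± 6.06 FPKM in controls (SD, n = 3 each; log2 fold change -0.50, limma adjusted p = 0.0009895). Dyrk2, a kinase that acts on Gli2, rose by 0.53 on the log2 scale. Numb, a partner protein, also rose, at 0.32 on the log2 scale. Csnk1a1 and Fbxw11 fell, at -0.27 and -0.21. Fbxw11 is an uncertain call, lost in 7 of 16 alternatives, among them equal sums, upper quartile and quantile scaling and leaving out SETD4 OE replicate 1 (adjusted p = 0.0629, limma) or control replicate 3 (0.0715). Csnk1a1 did not pass with quantile normalization (-0.08, limma adjusted p = 0.226).

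Of 13 genes often named as targets, 9 were tested, and 2 rose and 6 fell, where 26.0% of all tested genes were higher and 33.9% lower. Of the 6, Bcl2 (log2 fold change -0.29, limma adjusted p = 0.0402) lost its call in 8 of 15 alternatives, among them the omission of SETD4 OE replicate 2 or 3 or of any control. The G1 cyclin gene Ccnd1 averaged 17.3 FPKM in SETD4 OE and 261 FPKM in controls, and Ccnd2 28.6 and 124 FPKM in SETD4 OE and controls. Olig2, a basic helix-loop-helix factor of oligodendroglial and transit-amplifying cells, averaged 128 ± 7.76 FPKM in SETD4 OE and 339 ± 32.2 FPKM in controls (SD, n = 3 each; log2 fold change -1.40, limma adjusted p = 1.963e-05). The risers were Mycn, a proliferation factor, and Sfrp1, a secreted Wnt antagonist, both picked after their values were seen. Mycn was at 3.33, 2.97 and 3.28 FPKM in SETD4 OE, against 1.06, 0.932 and 0.973 FPKM in controls. All of these genes also answer to other pathways.

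**Figure D5:**
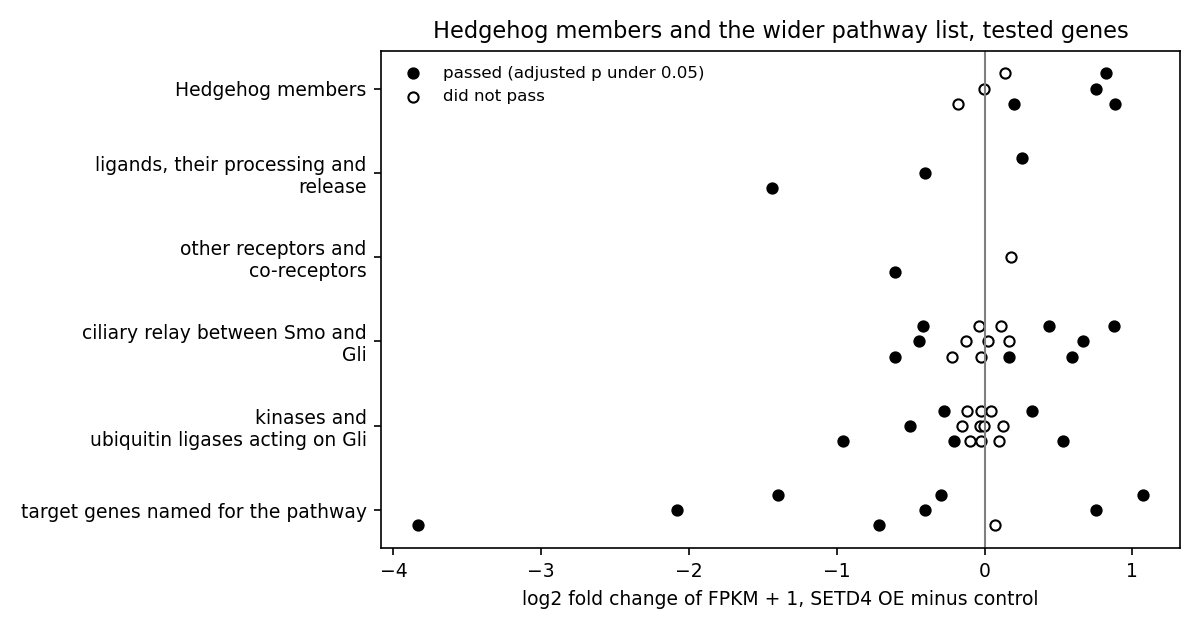
Log2 fold change of FPKM + 1 (SETD4 OE minus control) of every tested Hedgehog member and every tested gene of the wider list, grouped by role, with a point per gene. Filled points passed an adjusted p of 0.05; the members reach 0.88 (Gli2) and the target list reaches -3.84 (Ccnd1).

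Many markers of other cell types also differed between the groups, in both directions. Of 5 tested astrocyte markers 4 rose, of 6 of oligodendrocyte precursors 5 rose and 1 fell, of 5 of oligodendrocytes 5 rose, and of 5 of ependymal cells 5 rose, against 26.0% of all tested genes higher and 33.9% lower. The summed level of the astrocyte markers ran from 469 to 475.5 FPKM in SETD4 OE and from 247 to 268 FPKM in controls. The sum for oligodendrocytes ran from 82.5 to 89.5 FPKM in SETD4 OE and from 42.0 to 45.3 FPKM in controls, and that for ependymal cells from 52.9 to 71.0 FPKM in SETD4 OE and from 21.5 to 26.35 FPKM in controls. Precursor markers summed to 585 to 642 FPKM in SETD4 OE and 850 to 929 FPKM in controls, a sum carried by Olig1. None of 8 microglia and macrophage markers reached the level for testing, and they summed to 1.74 to 2.12 FPKM in SETD4 OE and 0.826 to 1.22 FPKM in controls. Of 4 tested neuroblast and neuron markers 1 rose and 1 fell (sums of 20.9 to 24.0 FPKM in SETD4 OE and 19.0 to 20.7 FPKM in controls), and of 4 tested pericyte, smooth muscle and fibroblast markers 3 rose and 1 fell (21.8 to 25.6 FPKM in SETD4 OE and 32.6 to 37.3 FPKM in controls). The last sum is carried by Acta2, the marker that fell, at 11.6 FPKM in SETD4 OE and 30.9 FPKM in controls. Of 6 endothelial markers 1, Flt1, was tested and fell, and Cldn5, a defining endothelial gene, had 0 reads in every library. The part of these cell types in the levels of Gas1, Boc, Cdon, Gli2 and Dhh was not tested.

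The genes whose pattern over the 6 libraries was most like a member's were ranked by Pearson's r of log2(FPKM + 1) among 7464 protein-coding genes that averaged 5 FPKM or more. For Gli2 these were Sptbn1 (r = 0.9985), Grk3 (0.9983) and Abcc5 (0.9982), and for Gli3 Npr2 (0.9990), Mapk8ip3 (0.9954) and Lrp1 (0.9949). For Ptch1 they were Lta4h (0.9723), Cep120 (0.9667) and Marchf6 (0.9658). For Gli1, at 3 to 8 reads per library, Mink1 (0.9769), Tspyl2 (0.9530) and Mcm3ap (0.9482) came first. An r above 0.95 was reached by 860 genes with Gli2, 321 with Gli3, 7 with Ptch1 and 2 with Gli1, and these 6 libraries fall into 2 groups.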

How the data were processed

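Total RNA was sequenced in 6 libraries of mouse SVZ neural stem cells, and groups and replicate numbers came from the sample titles. Reads had been aligned with HISAT2 2.0.5 to mm39, per the submitters' processing notes; how reads were counted, with which annotation and strand setting, is not given in the sources used here, so reads of overlapping genes cannot be told apart. The authors deposited FPKM for 55802 genes, per the file headers, with gene length in bases. FPKM times length was a whole multiple of the worth of 1 read for 100% of values (tolerance 0.05 reads), which gave reads per gene. These totals differ from the library size the authors divided by, by -5.04 to -3.69% in SETD4 OE and 0.634 to 2.75% in controls.

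Groups were compared with limma 3.58.1 (R 4.3.3) on log2(FPKM + 1), with a mean-variance trend, two-sided, over the 12994 genes that averaged 1 FPKM or more; p-values were adjusted by Benjamini-Hochberg over all of them. This scale understates the change of low genes. Low genes were also read from limma-voom on recovered reads, an alternative chosen after the tables were seen. The members, the wider list of 58 genes and the marker lists were chosen with earlier results of these data known. Named genes were all members, Setd4, up to 3 called genes with the largest change in each part of the wider list, Shh, Ihh, Dhh, Cdon and the 3 most similar genes of Gli1, Gli2, Gli3 and Ptch1; 1 gene that the rule picks is not reported here. Other genes were named after their values were seen.

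Alternatives were a pseudocount of 0.1, other filters, the replicate number as a block, 4 other scalings, limma-voom, a threshold of 0.01 and leaving out each library. Same-numbered libraries are not said to share a culture. Figures were drawn with matplotlib 3.10.9.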

Additional observations from a re-analysis of the deposited data

How the results depend on the processing

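The rises of Gli2, Gas1 and Boc passed under all 16, 17 and 17 alternatives that gave a value, with log2 fold changes of 0.83 to 1.16, 0.73 to 0.93 and 0.78 to 1.05. Gli3 passed in 10 of 16; it stayed at 0.20 but did not pass without a filter (adjusted p = 0.0520) or with the replicate block (0.0648), and ranged from 0.17 to 0.22 when single libraries were left out. Ptch1 passed in 5 of 17, at 0.21 with equal sums, 0.20 with the upper quartile, 0.22 with quantile normalization and 0.22 with limma-voom over the genes of the main fit. With limma-voom over all genes with at least 10 reads, Ptch1 did not pass (0.12, adjusted p = 0.152). Its estimate ranged from 0.11 to 0.19 without single libraries. Smo turned from -0.01 to 0.16 with quantile normalization. Sufu ranged from -0.25 to -0.12 without single libraries. It passed at -0.24 with limma-voom over all genes with at least 10 reads, but not with limma-voom over the genes of the main fit (-0.14, adjusted p = 0.194). In the limma-voom fit over all genes with at least 10 reads, Gli1 was at 0.52 and Hhip at 0.51, against 0.04 and 0.10 on the log2(FPKM + 1) scale. The scalings moved the median of all tested genes by at most 0.07. With a minimum mean of 5 FPKM, 2 of the 5 members tested and 16 of 27 genes of the wider list changed, against 4 of 7 and 26 of 45, since fewer genes enter. Of all genes, 5256 of 8057 tested changed with that minimum, against 7790 of 12994 in the main fit. At a threshold of 0.01, 3 of 7 members and 5783 of all genes changed. The replicate block gave 3 members and 6941 genes. Equal sums, the upper quartile and limma-voom over the genes of the main fit each gave 5 members, with 7653, 7651 and 7946 genes. Quantile normalization gave 6 members and 7502 genes. No filter gave 3 of 9 members. Without single libraries, 3 to 5 members changed. Disp1 also lost its call with the replicate block (adjusted p = 0.0507). The deviations from the group mean correlated at -0.07, -0.23 and 0.08 between same-numbered libraries, and at -0.25 to 0.30 between differently numbered ones. Deviations from a mean of 3 libraries are tied to each other, so this check cannot decide whether the numbers pair cultures. Depth limits Gli1, Hhip, Shh and Ihh, each with fewer than 50 reads in any library.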

Other observations

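Some scarce genes around the pathway, picked after their values were seen, were below the level of the main test but had reads enough for limma-voom. Gpc5, a glypican that binds Hedgehog ligands, was at a mean of 1.42 FPKM in SETD4 OE and 0.534 FPKM in controls, without overlap (log2 fold change 1.39, SE 0.23, adjusted p = 0.0001389, limma-voom). Scube2, a secreted protein that helps to release the ligands, had 52 reads over the SETD4 OE libraries and 12 over the controls (2.22, SE 0.62, adjusted p = 0.00814, limma-voom). Lrp2, a large endocytic receptor that also binds Shh, was lower (-0.42, SE 0.13, adjusted p = 0.0151, limma-voom). With limma on log2(FPKM + 1) without a filter, Lrp2 did not pass (-0.15, adjusted p = 0.263), while Gpc5 (adjusted p = 0.0101) and Scube2 (0.0198) did. Foxf1, Foxa2 and Nkx6-1, targets in other tissues, had 6, 0 and 5 reads in all over the SETD4 OE libraries and 2, 1 and 4 over the controls.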
